A study of Mus musculus with 5 samples.

Results

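Macrophages of the adult mouse heart that carry RNA of Cd209f were examined in 5 single-cell RNA libraries of sorted cardiac interstitial cells. Cd209f belongs to the mouse CD209 family, a cluster of genes for C-type lectins related to human DC-SIGN, which are surface receptors that bind sugars on microbes and on the body's own glycoproteins. The cells were chosen by their measured RNA. A cell was taken as a Cd209f-positive macrophage when its deposited values showed C1qa at 3 or more on the natural-log scale, any Csf1r, any Cd209f, and neither Ccr2 nor Cdh5. C1qa encodes a chain of complement C1q and Csf1r the receptor for the macrophage growth factor CSF1, both hallmarks of tissue macrophages. Ccr2 marks macrophages and monocytes drawn from the blood, and Cdh5 marks endothelium. This gave 421 cells of 10961. They were described against Cd209f-negative macrophages of the same library, which had C1qa at 3 or more, Csf1r, and Folr2 at 1 or more, and numbered 1516. Folr2, a folate receptor, is a marker of resident macrophages.

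Many resident macrophages settle in the heart before birth. They maintain themselves largely by division, clear dead cells and debris, and are told from monocyte-derived macrophages by low Ccr2 and high Folr2, Lyve1 and Timd4. CD209-family lectins mark subsets of such resident cells in several mouse tissues. The genes given as markers of these cells, beside Cd209f, were Pla2g2d (a secreted phospholipase A2), Vsig4 (a receptor for complement C3 fragments) and Retnla (a secreted resistin-like protein induced by interleukin-4 and interleukin-13).

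The hearts were digested with collagenase, cardiomyocytes were removed, and cells were sorted on surface cKit (the stem cell factor receptor), DDR2 (a collagen receptor of fibroblasts) and CD45 (the pan-leukocyte antigen encoded by Ptprc). There was 1 library each of cKit+/DDR2+/CD45+, cKit+/DDR2+/CD45- and cKit-/DDR2+ cells, and 2 libraries, called replicates 1 and 2, of cKit+/DDR2- cells. The labels give no strain, sex, number of hearts, transgene or treatment, and nothing says whether the libraries came from separate animals. Between 436 and 3898 cells per library were analysed, at a median of 7529 to 10972 unique molecular identifiers (UMIs, counted RNA molecules) per cell. A total of 190 cell barcodes, against 1 to 3 for the other pairs of libraries, occurred in both cKit+/DDR2+/CD45+ and cKit+/DDR2- replicate 1, 43.6% of the cells of replicate 1; the copy in cKit+/DDR2+/CD45+ had 0.0521 times as many UMIs at the median. None of the 190 was a Cd209f-positive macrophage, and 2 were comparison cells.

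Cd209f-positive macrophages were found in 2 libraries. There were 402 in cKit+/DDR2+/CD45+, 10.3% of its 3898 cells (95% exact binomial interval 9.38 to 11.3) and 12.2% of its 3308 macrophages with C1qa and Csf1r (11.1 to 13.3). There were 19 in cKit+/DDR2- replicate 2, 0.629% of 3020 cells (0.379 to 0.981) and 3.69% of 515 macrophages (2.24 to 5.70). Cd209f was not listed in cKit+/DDR2+/CD45-, cKit-/DDR2+ or cKit+/DDR2- replicate 1, and no member was found there. Those libraries held 1, 10 and 23 macrophages, too few for the absence of Cd209f to be read. Comparison cells numbered 1347 in cKit+/DDR2+/CD45+ and 161 in cKit+/DDR2- replicate 2. Only cKit+/DDR2+/CD45+ has at least 50 members, so sizes below refer to it unless replicate 2 is named, and values of replicate 2 rest on 19 cells. With 1 library on each side no test between sorts was possible, and all intervals below cover counting error only, not the spread between cells or animals.

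In these cells the surface gate and the RNA were not alike for Kit, nor for Ddr2 in the cKit+/DDR2+/CD45+ sort. Ptprc RNA was present in that sort, as its CD45 gate asks. In the 402 members of cKit+/DDR2+/CD45+, Kit had 7 UMIs in all (1.31 UMIs per 1000000, CPM) and Ddr2 had 4 (0.750 CPM). The Cd209f-negative macrophages of that library had 29 UMIs of Kit (1.72 CPM) and 6 of Ddr2 (0.356 CPM). Ptprc stood at 289 CPM in the members and 303 CPM in the Cd209f-negative macrophages. The 19 members of cKit+/DDR2- replicate 2 held no UMI of Kit or Ddr2 and had Ptprc at 142 CPM, against 241 CPM in its Cd209f-negative macrophages.

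Cd209f lies on mouse chromosome 8 at chr8:4102787-4105835 on the minus strand (GRCm38, GENCODE M21), and its nearest relative Cd209g at chr8:4134098-4137707 on the plus strand. Both are protein-coding, and they close a cluster of 7 genes in the order Cd209a, Cd209e, Cd209d, Cd209b, Cd209c, Cd209f and Cd209g that spans 394 kb. The 250 bases before the RefSeq start of each (GRCm38.p6) are shown because the pair was also the most closely linked in the cells, as given below. The windows are chr8:4105765-4106014 on the minus strand for Cd209f and chr8:4134486-4134735 on the plus strand for Cd209g, written 5′ to 3′ on the strand of the gene, with the stretch that is letter for letter the same in both in capitals. The RefSeq starts lie inside the GENCODE genes, so the Cd209f window overlaps the first bases of that gene in GENCODE and the Cd209g window lies within it.
Cd209f: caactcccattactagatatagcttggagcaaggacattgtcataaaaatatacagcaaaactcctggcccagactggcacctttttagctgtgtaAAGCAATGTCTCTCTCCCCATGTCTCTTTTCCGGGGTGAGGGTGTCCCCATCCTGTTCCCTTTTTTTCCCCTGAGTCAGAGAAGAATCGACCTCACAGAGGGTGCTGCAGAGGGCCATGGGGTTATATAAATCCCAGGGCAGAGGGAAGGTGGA
Cd209g: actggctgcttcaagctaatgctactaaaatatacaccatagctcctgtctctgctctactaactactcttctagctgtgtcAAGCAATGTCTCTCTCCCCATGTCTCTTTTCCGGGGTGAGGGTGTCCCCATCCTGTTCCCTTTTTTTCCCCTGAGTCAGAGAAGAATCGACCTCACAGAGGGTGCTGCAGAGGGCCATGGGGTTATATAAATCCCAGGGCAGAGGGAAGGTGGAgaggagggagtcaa

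The identical stretch is 154 bases long and lies 154 to 1 bases before the start of Cd209f and 168 to 15 bases before the start of Cd209g. It holds the TATA box letters TATAAA, searched on the gene strand only, beginning 29 bases before the start of Cd209f and 43 before that of Cd209g. Of 32851 RefSeq promoter windows of 250 bases, 7.59% hold these letters on that strand. Among those windows Cd209g was the only other gene that shared a run of 30 bases or more with the Cd209f window. The windows of the other 5 cluster genes shared runs of 7 to 10 bases with it and did not hold these letters. The transcripts are alike as well. Those of Cd209f and Cd209g share an identical run of 416 bases, bases 195 to 610 of the 1186 of Cd209f. The libraries read the 3′ end, and there the last 500 bases are 84.3% identical over 479 aligned bases, with no shared run longer than 29. The longest runs shared with the other 5 cluster genes are 10 to 17 bases. Reads falling in the long shared run cannot be told apart, so the separate levels of Cd209f and Cd209g are uncertain to that extent, and how many reads fell there was not tested.

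Cd209f itself, which chose the members, was spread very unevenly over them. In cKit+/DDR2+/CD45+, 194 of 402 members (48.3%) had a single Cd209f UMI, 82 (20.4%) had 2 to 4, and 126 (31.3%) had 5 or more, with a median of 2 and a highest value of 70. The 126 cells with 5 or more held 81.3% of the Cd209f UMIs of all members. In cKit+/DDR2- replicate 2, 7 of 19 members had 1 UMI, 3 had 2 to 4 and 9 had 5 or more, with a median of 3 and a highest value of 29. The classes of 1, 2 to 4 and 5 or more UMIs were chosen after these values were seen, and they are described here without a test.

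**Figure D1:**
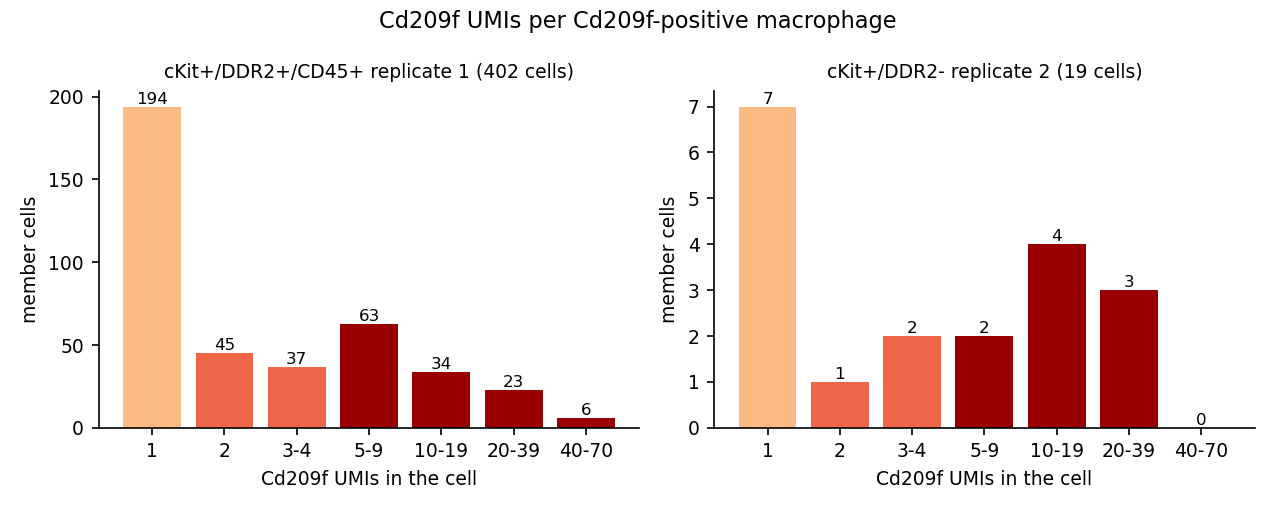
Number of member cells (vertical axis) by Cd209f UMIs in the cell (horizontal axis, in unequal bins), in cKit+/DDR2+/CD45+ replicate 1 (left, 402 cells) and cKit+/DDR2- replicate 2 (right, 19 cells). Cells with 1 UMI form the tallest bar in both libraries, 194 and 7 cells, and a tail reaches 70 UMIs on the left and 29 on the right.

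Cd209f was also sought in wider groups of cells. The groups of macrophages below include the members, and cells with C1qa below 3 held Cd209f mostly as 1 UMI per cell. In cKit+/DDR2+/CD45+, macrophages with Folr2 at 1 or more held Cd209f in 22.6% of cells (20.6 to 24.6), at a median of 11514 UMIs per cell. Macrophages with C1qa and no Folr2 held it in 7.82% of cells (6.17 to 9.74), at a median of 10600 UMIs. Of 278 cells with C1qa below 3 and at least 2000 UMIs, 13 held it (4.68%, 2.51 to 7.86), at a median of 13344 UMIs. With every cell thinned to 2000 UMIs these shares were 10.6% with Folr2, 1.30% without Folr2 and 1.44% in cells with C1qa below 3. Exactly 1 Cd209f UMI was found in 9.16%, 6.84% and 4.32% of the same groups without thinning, and 1 of the 278 cells with C1qa below 3 had more than 1. In cKit+/DDR2- replicate 2, exactly 1 Cd209f UMI was found in 3.89% of 180 macrophages with Folr2, in 0 of 274 with C1qa and no Folr2, and in 3 of 2417 cells with C1qa below 3 (0.124%).

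The share of macrophages with Cd209f was also compared at equal depth. Among macrophages with neither Ccr2 nor Cdh5 the share with Cd209f after thinning to 2000 UMIs was 6.62% of 2310 cells in cKit+/DDR2+/CD45+ (5.64 to 7.72) and 3.88% of 335 cells in cKit+/DDR2- replicate 2 (2.08 to 6.54). After thinning to 5000 UMIs the shares were 11.3% of 2277 cells (10.0 to 12.7) and 4.64% of 323 cells (2.62 to 7.54). These intervals are over cells of 1 library each, so they do not test a difference between the sorts. The share in cells with C1qa below 3 also differed between the libraries, at 4.68% and 0.124% without thinning. Without thinning the shares were 17.1% and 5.56%.

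The C1qa threshold touched few cells. The members nearest above it had C1qa at 3.06, 3.22, 3.28, 3.29 and 3.35 on the natural-log scale, and 4 cells with the other features fell below it, at 2.99, 2.98, 2.96 and 0.953. The Ccr2 and Cdh5 conditions removed more: 123 macrophages with Cd209f were left out of cKit+/DDR2+/CD45+ by them, 116 with Ccr2 and 9 with Cdh5. Of these, 78 had 1 Cd209f UMI, 25 had 2 to 4 and 20 had 5 or more. The rule did not ask for Folr2 in the members. Of the 402, 322 had it at 1 or more, as every comparison cell did by rule, and 42 had none. Of the 1347 comparison cells, 269 held Ccr2 and 23 held Cdh5, so sizes were also taken against the 1062 comparison cells with neither. Only some of those sizes are given below.

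Macrophage genes that the rule did not use were present in the members, and the summed levels of marker lists of other cell types ranged widely. C1qa had a median of 78 UMIs per member (lowest 3, highest 249) and a median of 77 in Cd209f-negative macrophages, and both carry it by rule. Mrc1, the mannose receptor, was not used in the rule and was seen in 99.0% of the members and 99.0% of the Cd209f-negative macrophages. Adgre1, which encodes the macrophage antigen F4/80, stood at 277 CPM in the members and 242 CPM in the Cd209f-negative macrophages. The summed level in the members was 0 CPM over 7 mast cell and basophil genes, 5.06 CPM over 5 erythroid genes, 7.50 CPM over 7 pericyte and smooth muscle genes, 19.7 CPM over 11 lymphocyte genes and 35.4 CPM over 8 cardiomyocyte genes. The Cd209f-negative macrophages had 0, 4.45, 7.77, 12.8 and 32.2 CPM over the same lists. Unlisted genes count as 0 in these sums. Only 0 of the 7 mast cell and basophil genes, 3 of the 5 erythroid genes and 5 of the 11 lymphocyte genes are listed in this library. The 10 endothelial genes summed to 560 CPM in the members and 543 CPM in the Cd209f-negative macrophages, of which Cd36, a lipid receptor also found on macrophages, gave 491 and 475 CPM. The 8 fibroblast genes summed to 163 and 195 CPM, with Gsn at 148 and 175 CPM. The 10 monocyte genes summed to 163 and 171 CPM, with Nr4a1 at 162 and 115 CPM. This list includes Ccr2, which the rule sets to 0 in the members and which had 54.3 CPM in the Cd209f-negative macrophages. The 9 dendritic cell genes summed to 96.2 CPM in the members and 71.2 CPM in the Cd209f-negative macrophages, and among them Cd209a had 33.7 and 5.87 CPM. The 7 neutrophil genes summed to 136 and 40.6 CPM, most of it Mmp9, and the 10 genes of dividing cells to 202 and 246 CPM. The part of other cell types in the differences below was not tested. The median number of UMIs per cell was 11523 in members and 11387 in Cd209f-negative macrophages, mitochondrial genes took 7.36% and 6.77% of UMIs, and immediate-early genes 2.31% and 2.19%.

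Set against all Cd209f-negative macrophages of cKit+/DDR2+/CD45+, the members as a whole differed little. A gene was measured where either group reached 50 CPM, and 2950 genes were. Of these, 5 passed 2-fold upwards (0.169%) and 2 passed it downwards (0.0678%). Sizes are log2 ratios of CPM plus 1, with intervals for the ratio of the CPM themselves. One of the 5 is Cd209f and one of the 2 is Ccr2, both set by the rule. The other genes that were higher were Cd209g, Mmp9 (a secreted gelatinase), C4b (complement component C4) and Ccl8 (a chemokine). The other gene that was lower was S100a6, a calcium-binding protein.

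Cd209g had 110 CPM in the members (95% Poisson interval 101 to 119) and 4.33 CPM in the Cd209f-negative macrophages (3.39 to 5.44), a log2 ratio of 4.38 (4.31 to 5.04). It was seen in 40.3% of the members and 4.31% of the Cd209f-negative macrophages. Its level in cKit+/DDR2- replicate 2 was 180 CPM in the members and 2.20 CPM in the Cd209f-negative macrophages, from 38 and 4 UMIs. Cd209g was thus higher in the members of both libraries, and in cKit+/DDR2+/CD45+ by more than any other measured gene that the rule did not use.

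Mmp9 had 118 CPM in the members (109 to 128) and 28.3 CPM in the Cd209f-negative macrophages (25.8 to 30.9), a log2 ratio of 2.02 (1.89 to 2.24). Mmp9 in cKit+/DDR2- replicate 2 had 308 CPM in the members and 17.0 CPM in the Cd209f-negative macrophages, from 65 and 31 UMIs. Mmp9 is also a gene of neutrophils. Of the other neutrophil genes, Csf3r had 94 UMIs in the 402 members (17.6 CPM, against 11.9 CPM in the Cd209f-negative macrophages), S100a8 and Cxcr2 had 1 each and Retnlg had 0, while S100a9 and Ly6g are not listed in this library. C4b had 61.7 CPM in the members and 20.2 CPM in the Cd209f-negative macrophages (log2 1.56, 1.39 to 1.83), and Ccl8 had 78.7 and 35.9 CPM (log2 1.11, 0.949 to 1.31). Replicate 2 held 1 UMI of C4b and 6 of Ccl8 in its members, too few to place them. Over all genes measured in replicate 2, 168 of 3121 were 2-fold apart (5.38%) with 19 member cells, and that count is not used further. S100a6 had 203 CPM in the members and 412 CPM in the Cd209f-negative macrophages (log2 -1.02, -1.11 to -0.928). It missed the 2-fold size, at -0.93, when both sides had Folr2 and neither Ccr2 nor Cdh5.

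The other markers given for these cells were higher in the members of cKit+/DDR2+/CD45+, each by less than 2-fold. Pla2g2d had 153 CPM in the members and 81.2 CPM in the Cd209f-negative macrophages (log2 0.91, 0.791 to 1.04), and was seen in 55.5% and 39.3% of cells. Vsig4 had 129 and 91.2 CPM (log2 0.49, 0.366 to 0.629), and was seen in 25.9% and 19.2% of cells. Retnla had 2249 CPM in the members and 1328 CPM in the Cd209f-negative macrophages (log2 0.76, 0.729 to 0.793), and was seen in 82.3% and 80.4% of cells. Retnla and Vsig4 were carried by few cells: the tenth of members with most of each gene held 72.9% of the Retnla UMIs and 79.9% of the Vsig4 UMIs. The median member had 2 UMIs of Retnla and the highest had 737, so the counting intervals of Retnla are far narrower than its spread over cells.

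These genes did not move together in cKit+/DDR2- replicate 2. Pla2g2d had 142 CPM in the 19 members and 34.6 CPM in the 161 Cd209f-negative macrophages, and Vsig4 had 85.3 and 11.5 CPM, with its 18 UMIs in 2 of the 19 members. Retnla ran the other way, with 531 CPM in the members and 1018 CPM in the Cd209f-negative macrophages (log2 -0.94, -1.23 to -0.663). It was seen in 21.1% and 25.5% of these cells, as 15 of the 19 members and 120 of the 161 Cd209f-negative macrophages held none. The tenth of these Cd209f-negative macrophages with most Retnla held 89.5% of its UMIs. The direction of the summed level of Retnla thus differed between the libraries, and that of Pla2g2d and Vsig4 did not.

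Within the members, most of what set them apart lay in the cells with 5 or more Cd209f UMIs. Against the Cd209f-negative macrophages, the 194 members with 1 UMI had 2 genes of 2946 higher (0.0679%) and 1 lower (0.0339%), and beside the rule genes Cd209f and Ccr2 this was Il1b, the cytokine interleukin-1 beta, with 342 CPM in these members and 156 CPM in the Cd209f-negative macrophages (log2 1.13, 1.02 to 1.25). Il1b is high in macrophages with Ccr2 and no Folr2, at 918 CPM. Any Folr2 was seen in 82.0% of the members with 1 UMI, while every comparison cell had it at 1 or more by rule. Over all members the log2 ratio of Il1b was 0.66, and 0.13 with Folr2 on both sides and neither Ccr2 nor Cdh5. The 82 members with 2 to 4 had 7 of 3054 higher (0.229%), among them Cd209g, Cxcl13 (57.5% of its UMIs in 1 cell), Mmp9, C4b, Pla2g2d and Slc40a1, and 4 lower (0.131%), among them S100a6. The 126 members with 5 or more had 21 of 3032 higher (0.693%) and 8 lower (0.264%). Depth did not differ much between these classes, with medians of 11288, 11572 and 11792 UMIs per cell, against 11387 in Cd209f-negative macrophages.

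Cd209g, Cd209d and Cd209b were higher in each class than in the one below it. Cd209g had 4.33, 17.1, 58.0 and 277 CPM in macrophages with 0, 1, 2 to 4, and 5 or more Cd209f UMIs, and was seen in 4.31%, 14.9%, 41.5% and 78.6% of the cells. Cd209d had 3.62, 7.16, 23.0 and 114 CPM, and was seen in 2.82%, 4.12%, 14.6% and 41.3% of the cells. Cd209b had 1.48, 5.96, 15.6 and 53.1 CPM over the same classes. Cd209a had 5.87 CPM at 0, 23.9 CPM at 2 to 4 and 52.5 CPM at 5 or more. Its level at 1 UMI was slightly above that at 2 to 4, with log2 ratios to the class of 0 of 1.92 and 1.86, and within counting error of it. Cd209a was seen in 5.64%, 6.70%, 20.7% and 31.0% of the cells over the 4 classes, so few cells carried its level at 1 UMI. The mouse Cd209b gene product, SIGN-R1, is known as a lectin of marginal zone macrophages of the spleen, and Cd209a is known from dendritic cells. Of the remaining cluster genes, Cd209c and Cd209e were close to absent, with 5 and 3 UMIs in the 126 cells, none in the class of 2 to 4, and 1 and 0 in that of 1.

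The transcripts of Cd209d, Cd209b and Cd209a share runs of 11 to 13 bases at most with that of Cd209f. In the 126 cells the log2 ratio to Cd209f-negative macrophages was 5.71 for Cd209g (5.64 to 6.38), 4.63 for Cd209d (4.55 to 5.41), 4.45 for Cd209b (4.51 to 5.86) and 2.96 for Cd209a (2.73 to 3.59). The added 1 CPM pulls the first of these values down for genes so low in the comparison cells, which is why that of Cd209b lies under its interval. Macrophages with Ccr2 and no Folr2, which are not among the comparison cells, had 24.4 CPM of Cd209a and 13.9 CPM of Cd209d. The 9 members of cKit+/DDR2- replicate 2 with 5 or more Cd209f UMIs had 34 UMIs of Cd209g, 3 each of Cd209d and Cd209a, and none of Cd209b.

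In single cells the cluster genes were seen side by side. None of the other 6 cluster genes was seen in 87.5% of Cd209f-negative macrophages, 77.3% of members with 1 Cd209f UMI, 45.1% of those with 2 to 4 and 16.7% of those with 5 or more. At the other end, 3 or more of them were seen in 0.223%, 1.03%, 4.88% and 27.0% of these cells.

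**Figure D2:**
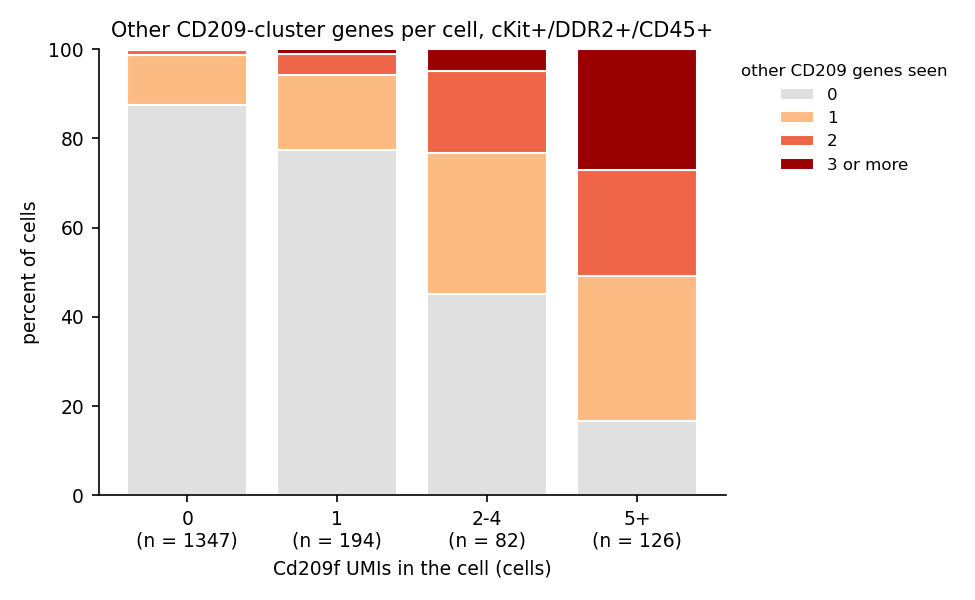
Percent of cells (vertical axis) in which 0, 1, 2, or 3 or more of the other 6 CD209-cluster genes had a UMI, by Cd209f UMIs in the cell (horizontal axis), for macrophages of cKit+/DDR2+/CD45+ replicate 1. The part with none shrinks over the classes to 16.7% of the 126 cells with 5 or more, and the part with 3 or more reaches 27.0% there.

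Outside the cluster, secreted proteins led the genes that were higher in the 126 cells. Mmp9 had 28.3, 32.2, 112 and 246 CPM over the classes of 0, 1, 2 to 4, and 5 or more Cd209f UMIs, and was seen in 53.2% of the highest class and 11.7% of the Cd209f-negative macrophages (log2 3.08, 2.93 to 3.31). C4b had 20.2, 32.2, 56.1 and 108 CPM over the same classes (log2 2.36 for the highest class, 2.15 to 2.68). Ccl8 had 35.9, 22.3, 71.8 and 165 CPM (log2 2.17, 1.99 to 2.40). Mmp9 was seen again in replicate 2, with 520 CPM in 9 cells and 17.0 CPM in the Cd209f-negative macrophages. Cxcl13, a chemokine that attracts B cells, had 84.8 CPM in the 126 cells and 14.7 CPM in the Cd209f-negative macrophages (log2 2.45), but 1 cell held 44.9% of its 147 UMIs, and the log2 ratio without that cell was 1.61.

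Pla2g2d, Vsig4 and Retnla passed 2-fold in the highest class against all Cd209f-negative macrophages of cKit+/DDR2+/CD45+. The remaining marker, Cd209f, defines this class, whose bound was chosen after the values were seen. Pla2g2d had 213 CPM in the 126 cells and 81.2 CPM in the Cd209f-negative macrophages (log2 1.38, 1.22 to 1.56), and was seen in 69.0% and 39.3% of the cells. Vsig4 had 196 and 91.2 CPM (log2 1.09, 0.927 to 1.27), but fell short of 2-fold at 0.84 against comparison cells without Ccr2 and Cdh5 and at 0.83 without the cell that held most of it. Retnla had 3349 and 1328 CPM (log2 1.33, 1.29 to 1.38). The 9 cells of replicate 2 had 246, 164 and 36.5 CPM of Pla2g2d, Vsig4 and Retnla, and the Cd209f-negative macrophages there had 34.6, 11.5 and 1018 CPM.

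**Figure D3:**
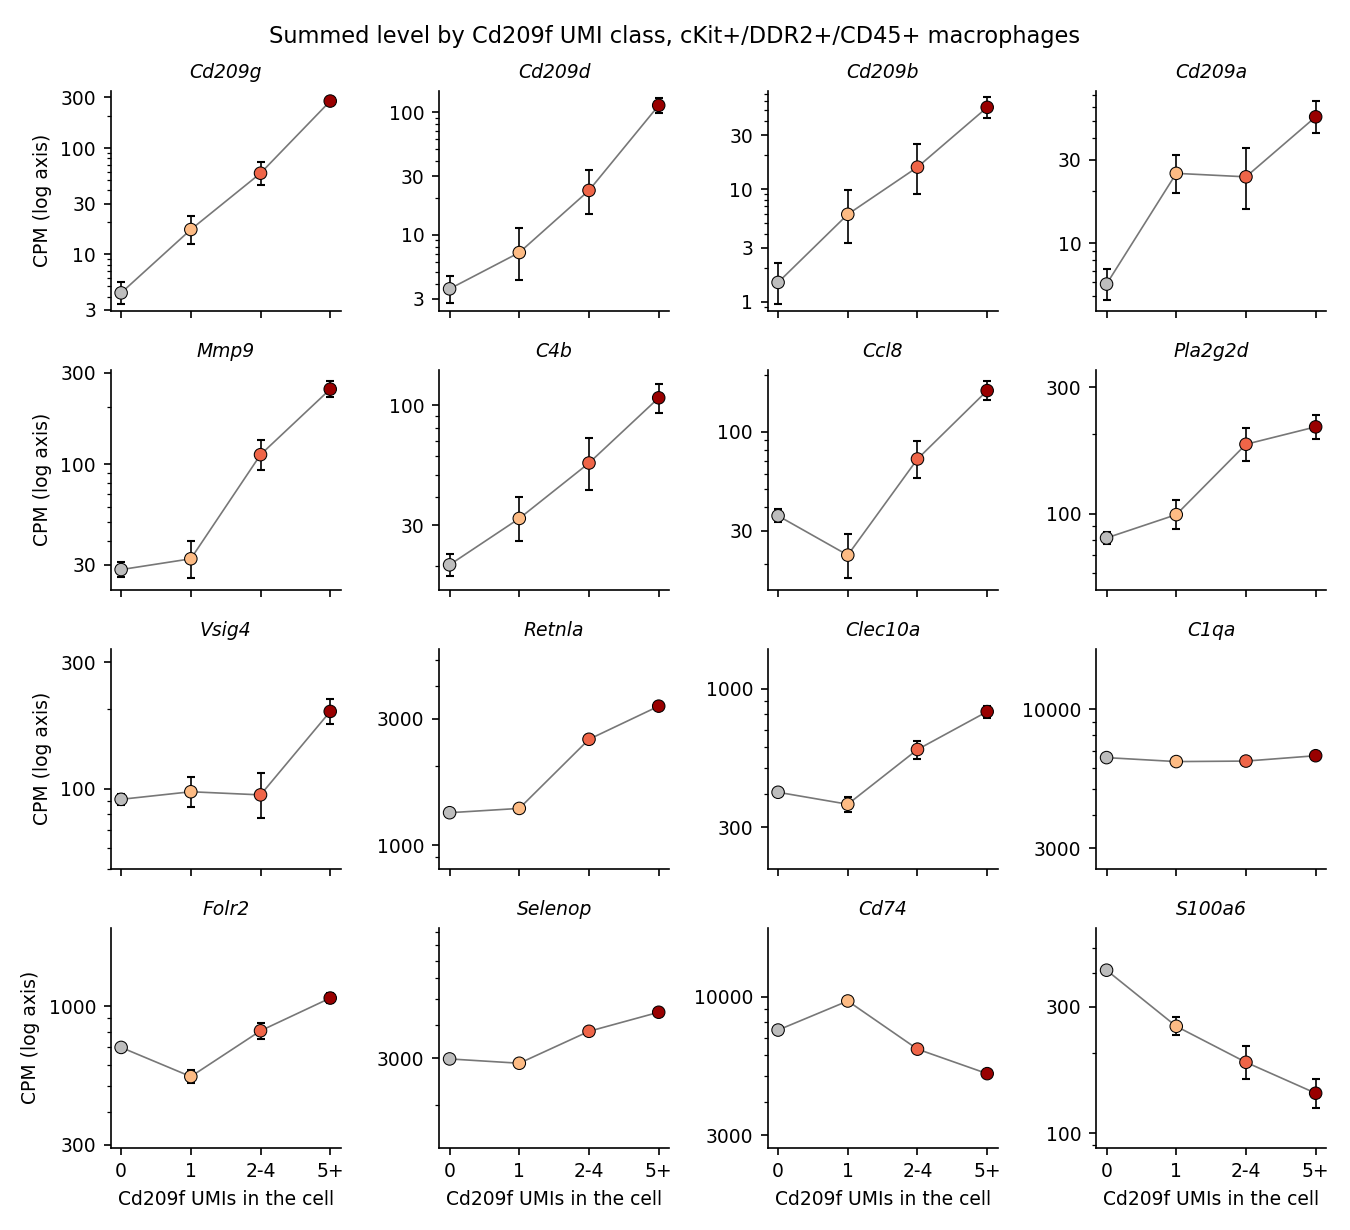
Summed level in CPM (vertical axis, log scale, ranges differ between panels) by Cd209f UMIs in the cell (horizontal axis) for 16 genes in macrophages of cKit+/DDR2+/CD45+ replicate 1, with 95% Poisson intervals that cover counting error only. Cd209g climbs to 277 CPM and Mmp9 to 246 CPM in the class of 5 or more, C1qa stays between 6361 and 6693 CPM, S100a6 declines over the classes, and Cd74 is highest at 1 UMI and lowest at 5 or more.

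The other genes that were at least 2-fold higher in the 126 cells were receptors, enzymes and an iron exporter. Slc40a1, which encodes the iron exporter ferroportin, had 212 CPM in these cells and 80.9 CPM in the Cd209f-negative macrophages (log2 1.38, 1.22 to 1.56). Clec10a, a C-type lectin for galactose-type sugars, had 818 and 406 CPM (log2 1.01, 0.927 to 1.09), and Ednrb, the endothelin receptor type B, had 186 and 79.2 CPM (log2 1.23). Hal (histidine ammonia-lyase), Rnf144b (a ubiquitin ligase), Mgst1 (a glutathione transferase), Rcn3 (a calcium-binding protein of the endoplasmic reticulum) and Ms4a7 (a membrane protein of macrophages) had log2 ratios between 1.07 and 2.03. Cd207, which encodes langerin, had a log2 ratio of 1.44, with 44.9% of its UMIs in 1 cell and a log2 ratio of 0.60 without that cell. Against comparison cells without Ccr2 and Cdh5, 18 genes were higher and 8 lower, of which 18 and 6 were among the 21 and 8. Beside Vsig4, the higher genes that fell short of 2-fold there were Clec10a (0.97) and Ms4a7 (0.91). Among those still 2-fold higher, Ccl8 (1.85), Cxcl13 (2.10) and Cd207 (1.11) had smaller log2 ratios there. Retnla (1.44), Cd209a (3.20) and Cd209b (4.52) had larger ones.

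Genes lower in the 126 cells were S100 proteins, a tetraspanin and regulators. Beside Ccr2, these were Cd9 (a tetraspanin) with 31.2 CPM in the 126 cells and 108 CPM in the Cd209f-negative macrophages (log2 -1.77, -2.22 to -1.41), and S100a6 with 141 and 412 CPM (log2 -1.53, -1.73 to -1.36). S100a4 had 171 and 395 CPM (log2 -1.20, -1.38 to -1.04). Runx3 (a transcription factor), Cd72 (an inhibitory receptor), Pmepa1 (an inhibitor of TGF-beta signalling) and Stmn1 (a microtubule regulator of dividing cells) had log2 ratios between -1.40 and -1.20. In the members with 1 Cd209f UMI, Runx3 (0.84), Cd72 (0.25), Cd9 (0.23), Stmn1 (0.22) and Pmepa1 (0.13) lay above the Cd209f-negative macrophages. S100a6 (-0.70) and S100a4 (-0.51) lay below them there too. Stmn1 was seen in 31.0% of the 126 cells and 30.7% of the Cd209f-negative macrophages. It fell short of 2-fold, at -0.98, against comparison cells without Ccr2 and Cdh5. In the 9 cells of cKit+/DDR2- replicate 2, 12 of the 21 higher genes and 7 of the 8 lower genes could be measured. Of these, 10 and 7 lay on the same side as in cKit+/DDR2+/CD45+, counting the rule genes Cd209f and Ccr2. The exceptions were Retnla, with a log2 ratio of -4.76, and Ednrb, with -1.09 from 3 UMIs. Several of those on the same side rest on few UMIs in the 9 cells: Ccl8 on 6, Runx3 and Pmepa1 on 2 each, Cd9 on 1 and Cd72 on 0. Over all 3229 genes measured in these cells, 203 were 2-fold higher and 214 lower. The share of all genes on the same side in both libraries was not computed.

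**Figure D4:**
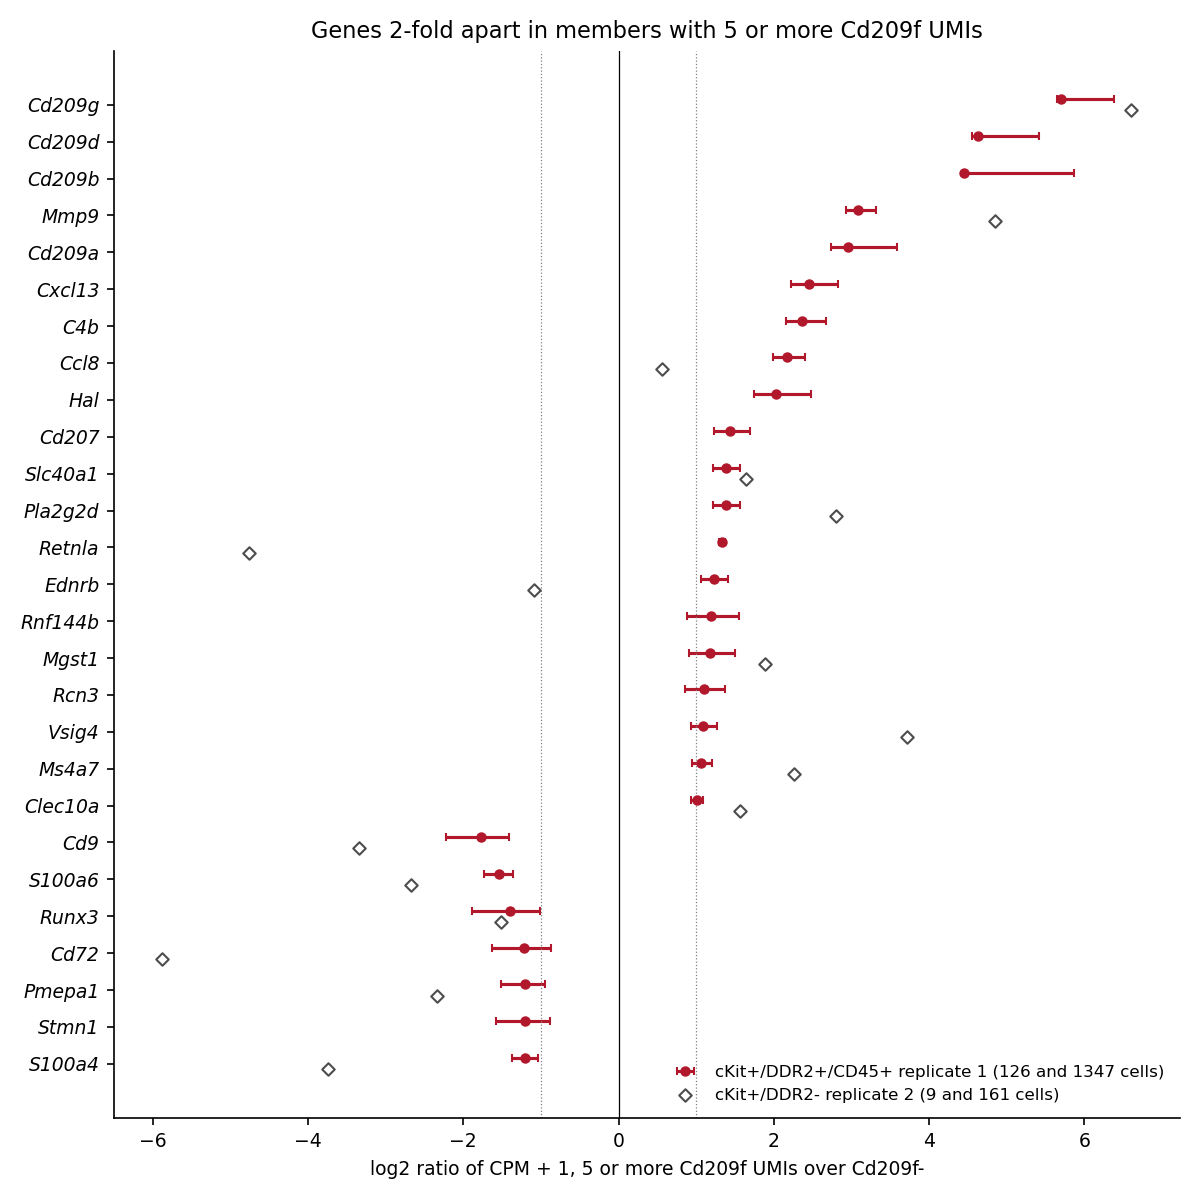
Log2 ratio of CPM + 1 (horizontal axis) in members with 5 or more Cd209f UMIs over Cd209f-negative macrophages, for the genes 2-fold apart in cKit+/DDR2+/CD45+ replicate 1 (filled, 126 and 1347 cells, with 95% intervals of the CPM ratio) and, where measured, in cKit+/DDR2- replicate 2 (open, 9 and 161 cells). Cd209f and Ccr2, set by the rule, are left out. Retnla at -4.76 and Ednrb at -1.09 are the open symbols on the other side of 0, and Cd72 in replicate 2 stands for 0 UMIs in 9 cells.

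Genes of known function were also described by list. All 3032 genes had a median log2 ratio of -0.01 between the 126 cells and the Cd209f-negative macrophages. Over the 18 measured genes of the resident macrophage core the median was 0.44, and 0.36 against comparison cells without Ccr2 and Cdh5. Of these genes, 0 of 18 passed 2-fold either way, against 0.956% of all 3032 genes. Among them Selenop (selenoprotein P) had 4472 CPM in the 126 cells and 2982 CPM in the Cd209f-negative macrophages (log2 0.58), Cd163 (the haemoglobin scavenger receptor) 371 and 239 CPM (0.63), and Timd4 (a receptor for dying cells) 242 and 162 CPM (0.58). Folr2 had 1075 and 700.0 CPM (0.62), although the rule asked for it in the comparison cells alone. Lyve1, a hyaluronan receptor, had 422 and 348 CPM (0.28). Cx3cr1, the fractalkine receptor, lay on the other side of 0 (-0.51).

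Antigen presentation genes lay lower in the 126 cells without reaching 2-fold. Over 7 measured genes of MHC class II presentation the median log2 ratio was -0.55, and the whole list summed to 9365 CPM in the 126 cells and 13538 CPM in the Cd209f-negative macrophages. Cd74, the invariant chain, had 5118 and 7474 CPM (log2 -0.55), H2-Aa 1699 and 2559 CPM (-0.59) and H2-Ab1 1312 and 1989 CPM (-0.60). The median was -0.28 against comparison cells without Ccr2 and Cdh5. In the members with 1 Cd209f UMI the order was the other way round, with Cd74 at 9619 CPM, against 7474 CPM in the Cd209f-negative macrophages.

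Of the uptake and lipid genes none passed 2-fold. The 13 measured scavenger and uptake receptors had a median log2 ratio of 0.32, the 11 lipid and lysosome genes 0.35 and the 10 iron and haem genes 0.31. Against comparison cells without Ccr2 and Cdh5 these medians were 0.30, 0.29 and 0.26. Apoe, the lipid carrier, had 25750 CPM in the 126 cells and 16986 CPM in the Cd209f-negative macrophages (log2 0.60), and Ctsd, a lysosomal protease, 825 and 452 CPM (0.86). Other members of these lists lay on the other side of 0: the uptake receptor Axl had 118 CPM in the 126 cells and 152 CPM in the Cd209f-negative macrophages (-0.36), and the lipoprotein receptor Lrp1 had 233 and 311 CPM (-0.41). One of the iron genes, Slc40a1, passed 2-fold, as given above. Complement C1q chains did not separate the groups, with C1qb at 3968 and 3958 CPM. Chemokines had a median of 0.03: beside Ccl8 and Cxcl13, Ccl24 had 645 and 338 CPM (0.93) and Cxcl2 1572 and 1572 CPM. Immediate-early genes, which rise in digested tissue, had a median of 0.10 over 18 genes.

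Cell by cell, Cd209g followed Cd209f most closely. Over the 2352 macrophages of cKit+/DDR2+/CD45+ with neither Ccr2 nor Cdh5, Spearman's correlation with Cd209f was 0.49 for Cd209g, and the next genes were Folr2 (0.26), Selenop (0.24), Fcna (a ficolin, 0.24), Mmp9 (0.23) and F13a1 (0.23). These values are descriptions of cells that share 1 library and its depth, and most of the cells hold no Cd209f. Over 342 such macrophages of cKit+/DDR2- replicate 2 the correlation was 0.26 for Folr2 and 0.32 for Mmp9. Mitochondrial transcripts were among the positively related genes (mt-Co2, 0.22), and ribosomal protein genes among the negatively related ones (Rps27, -0.20), and mitochondrial and ribosomal shares of UMIs moved over the classes too, with 7.91% and 12.6% in the 126 cells and 6.77% and 14.9% in the Cd209f-negative macrophages. Their part in the other differences was not tested.

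More genes were 2-fold apart between the libraries in the members than in the Cd209f-negative macrophages. Between cKit+/DDR2+/CD45+ and cKit+/DDR2- replicate 2, 270 of 3261 genes were 2-fold apart in the members (8.28%) and 53 of 3009 in the Cd209f-negative macrophages (1.76%). With 19 cells on one side, the first count holds more counting error, and its share due to that was not tested. Retnla had 2249 CPM in the members of cKit+/DDR2+/CD45+ and 531 CPM in those of replicate 2 (log2 2.08, 1.81 to 2.36), and Cd74 had 7488 and 2299 CPM (log2 1.70, 1.57 to 1.84). Cd74 also differed in the Cd209f-negative macrophages, with 7474 and 4000 CPM. Mmp9 was lower in the members of cKit+/DDR2+/CD45+, at 118 CPM, against 308 CPM in those of replicate 2. Folr2, with 770 and 716 CPM, and C1qa, with 6475 and 6002 CPM, differed little. The libraries differ in the share of the ribosomal RNA-derived gene Gm42418 in the members, 1.07% and 7.06% of UMIs. They also differ in sex-linked genes, whose levels are not given here, and in the sort gate. These differences cannot be told apart from each other.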

How the data were processed

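Per the submitters' processing notes, reads were processed with Cell Ranger (version not given) and Seurat 4.0.4 on mm10. The deposited tables hold, per gene and cell, the natural log (ln) of 1 plus UMIs scaled to 10000 per cell, as the authors made them. UMIs were recovered by inverting this scale: 100% of values were whole within 0.01 in every library. Unlisted genes were taken as 0, although genes seen in few cells appear to have been dropped.

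Members and comparison cells were picked on the deposited values, and their UMIs were summed per library and scaled to CPM. Sizes are log2 ratios of CPM plus 1, and a gene was measured where 1 of the groups reached 50 CPM. A gene counted as apart at 2-fold in every library with at least 50 members. Intervals (95%) are exact: Clopper-Pearson for shares, Poisson for CPM, and conditional binomial for CPM ratios without the added CPM. They cover counting error only. The calculation was tested on simulated data with counting error only, so that test does not cover the spread between cells. No p-value was computed, since each group has 1 library. Thinning drew 2000 UMIs per cell and left out shallower cells.

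Named genes were the markers, the rule and sort genes, up to 15 genes each way with at least 20 UMIs, and members of 29 lists (349 genes) that were apart or highest. The members, the lists and the rules were chosen with earlier results of these data known, and the UMI classes after seeing the values. Mitochondrial, ribosomal protein, haemoglobin, sex-linked and unnamed genes were not named. Doublets were searched with Scrublet in scanpy 1.11.5: it marked 28 of 3020 cells of cKit+/DDR2- replicate 2 and 1 of 3898 of cKit+/DDR2+/CD45+ (0.0257%), and so did not work in that library. No member or comparison cell was marked. Promoters are RefSeq's (GRCm38.p6), gene positions and transcripts GENCODE M21. Python 3.11.15, numpy 2.4.6, scipy 1.17.1, Biopython 1.88 and matplotlib 3.10.9 were used.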

Additional observations from a re-analysis of the deposited data

Results flagged for a closer look

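Retnla lay on opposite sides in the 2 libraries. Its log2 ratio of Cd209f-positive over Cd209f-negative macrophages was 0.76 in cKit+/DDR2+/CD45+ and -0.94 in cKit+/DDR2- replicate 2, and with 5 or more Cd209f UMIs it was 1.33 and -4.76. In the same class of 5 or more UMIs, Ccl7 (a chemokine) had log2 ratios of 0.79 and -1.35, Smpdl3a (a phosphodiesterase) 0.52 and -1.87, and Cdkn1a (an inhibitor of the cell cycle) -0.61 and 0.85, in the same order of libraries. These genes drew attention because the intervals of both values lie on opposite sides of 0. The difference between the libraries was not tested, since each has 1 library, replicate 2 rests on 9 to 19 member cells, and Retnla UMIs are gathered in few cells.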

How the results depend on the processing

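No paired analysis was possible because the replicate numbers follow accession order and members came from 1 library of each sort. Of 2 genes lower in all members of cKit+/DDR2+/CD45+, 0 remained against comparison cells without Ccr2 and Cdh5, with Folr2 on both sides and neither Ccr2 nor Cdh5, or without cells with genes of other types or high UMIs, and 1 with C1qa at 3.5 or more, the mean over cells, thinning to 5000 UMIs, a pseudocount of 10 CPM, or without the cells highest in immediate-early genes. Ccr2, one of the 2, is taken out of the comparison cells by the first and second of these settings. The other, S100a6, had log2 ratios from -1.37 to -0.889 over the 16 alternatives within this library, against -1.02. In place of 5 genes higher there were 8, the 5 among them, with Folr2 on both sides and neither Ccr2 nor Cdh5, with the mean over cells and with thinning to 5000 UMIs. Against 5 higher and 2 lower of 2950 genes measured, there were 11 and 6 of 3021 with at least 2 Cd209f UMIs. With a minimum of 10 CPM there were 16 and 4 of 7789, and with no minimum 31 and 36 of 15437. In cKit+/DDR2- replicate 2 alone there were 81 and 87 of 3121.

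For 5 or more Cd209f UMIs, every alternative was chosen after seeing the data. The 21 higher and 8 lower of 3032 genes measured became 58 and 58 of 7875 with a minimum of 10 CPM. With no minimum they became 202 and 388 of 15294, and with 10 or more Cd209f UMIs 38 and 29 of 3079. In the 9 cells of replicate 2 there were 203 and 214 of 3229. Leaving out either library in turn gave -4.76 and 1.33 for Retnla and -1.09 and 1.23 for Ednrb, whose direction in replicate 2 is reversed. The lower genes alone became 13 of 3046 with the mean over cells and 20 of 3076 without cells with genes of other types or high UMIs. They became 17 of 3808 with CPM without mitochondrial, ribosomal protein, Gm42418 and Lars2 UMIs. Between the libraries, 270 genes apart of 3261 became 1537 with a minimum of 10 CPM, which measures more genes, and 445 with at least 2 Cd209f UMIs. The cause was not tested.

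Members made up 6.29% of cKit+/DDR2+/CD45+ macrophages with at least 2 Cd209f UMIs, 15.6% with Ccr2 allowed and 5.27% when thinned to 2000 UMIs, against 12.2%. In cKit+/DDR2- replicate 2 thinning gave 1.97%, against 3.69%. The share with Cd209f at equal depth was 4.73% at 1000 and 11.3% at 5000 UMIs in cKit+/DDR2+/CD45+, and 2.08% at 1000 and 4.64% at 5000 in replicate 2. Under the 16 alternatives within cKit+/DDR2+/CD45+, the log2 ratio in all members stayed between 3.06 and 5.18 for Cd209g and 1.53 and 2.74 for Mmp9. Depth limits replicate 2, where 19 members held 210916 UMIs.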

Other observations

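Marco, a scavenger receptor, was chosen after its values were seen. It had 35.8 CPM in the members of cKit+/DDR2+/CD45+ with 5 or more Cd209f UMIs and 1.42 CPM in the Cd209f-negative macrophages, under the 50 CPM asked of a measured gene, and 1 cell held 85.5% of its UMIs. Among genes for dividing cells, the list of 10 summed to 135 CPM in these members and 246 CPM in the Cd209f-negative macrophages.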
